A study of Mus musculus with 24 samples.

Results

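The brush border of the duodenum is built on a small set of cytoskeletal proteins, and 8 genes that encode them were followed here through 24 RNA-seq libraries: Vil1, Espn, Pls1, Eps8, Ezr, Myo1a, Myo7b and Ush1c. They were chosen by name, as the microvillus genes among the 25410 symbols of the deposited tables, with earlier results of these data known. Counts over the 8 therefore describe these genes and add no independent evidence. All 8 were found, and all 8 passed the filter on low values that the tests used. The libraries came from male Cyp27b1-null mice, which lack the enzyme that activates vitamin D, and no group with a working Cyp27b1 is analysed here.

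All animals ate vitamin D-deficient food from weaning to 8 weeks of age. Rescue food held 2% calcium, 1.25% phosphorus and 20% lactose, and normal food held 0.47% calcium and 0.3% phosphorus. At 8 weeks of age they were given either 2 ng of 1,25-dihydroxyvitamin D3 (1,25D, the active hormone) per g of body weight or vehicle, and RNA of the whole duodenum was taken 6 h later. The 4 groups are rescue 1,25D, rescue vehicle, normal 1,25D and normal vehicle, with 6 libraries in each. Because libraries are not tied to animals in the labels, p-values measure only the spread between libraries, part of which may be technical.

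Each absorptive cell of the small intestine carries a dense array of microvilli on the side that faces the gut lumen. The core of a microvillus is a bundle of parallel actin filaments, held together by villin, espin and plastin and capped at the tip by proteins such as Eps8. Ezrin and the motor Myo1a tie the core to the membrane around it. Neighbouring microvilli are linked tip to tip by cadherins, which are anchored inside the cell by the motor Myo7b and the scaffold harmonin, the product of Ush1c. Levels of these proteins increase as cells leave the crypt and mature on the villus.

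The sequence just upstream of a gene is where many of its regulators bind. A RefSeq table of the GRCm38.p6 build held such windows, from 250 bases before to 50 bases after each start, for 6 of the 8 genes, with 8 windows in all because Espn had 3. The windows of Ezr, the 1 gene called below, and of Myo1a and Vil1, the pair with the highest levels, are shown 5′ to 3′ on the strand of the gene. Capitals mark a match to a searched motif on either strand: GGGCGG, the GC box read by Sp1-type factors, or a CArG box, the element read by serum response factor, which controls many actin genes. The windows lie at chr17:6782731-6783030 on the minus strand for Ezr, at chr10:127705006-127705305 on the plus strand for Myo1a and at chr1:74409134-74409433 on the plus strand for Vil1.
Ezr: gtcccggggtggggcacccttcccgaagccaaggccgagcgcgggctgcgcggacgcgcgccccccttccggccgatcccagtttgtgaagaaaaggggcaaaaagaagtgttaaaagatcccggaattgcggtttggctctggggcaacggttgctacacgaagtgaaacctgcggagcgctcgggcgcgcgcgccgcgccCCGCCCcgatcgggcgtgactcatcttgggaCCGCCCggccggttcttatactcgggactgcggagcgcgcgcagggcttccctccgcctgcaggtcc
Myo1a: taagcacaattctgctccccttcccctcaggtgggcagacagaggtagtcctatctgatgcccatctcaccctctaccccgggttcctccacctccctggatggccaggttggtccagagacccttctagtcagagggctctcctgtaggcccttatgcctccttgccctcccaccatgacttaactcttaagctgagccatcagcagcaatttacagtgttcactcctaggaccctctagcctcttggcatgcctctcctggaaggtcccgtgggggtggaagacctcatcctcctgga
Vil1: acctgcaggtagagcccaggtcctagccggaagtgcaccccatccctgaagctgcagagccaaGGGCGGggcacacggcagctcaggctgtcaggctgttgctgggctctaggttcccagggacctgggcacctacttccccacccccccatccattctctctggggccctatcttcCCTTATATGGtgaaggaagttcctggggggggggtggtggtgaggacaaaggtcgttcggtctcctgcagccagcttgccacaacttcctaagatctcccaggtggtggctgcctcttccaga

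The Vil1 window held a CArG box at bases 178 to 187, counted from its 5′ end, and a GC box at bases 64 to 69. The Ezr window held GC boxes at bases 203 to 208 and 234 to 239, and the Myo1a window held no searched motif. Over the 8 windows, 5 held GGGCGG, against 35.7% of all 32851 windows in the table, and 1 held a CArG box, against 1.63%. TTTAT, a motif of the intestinal factor Cdx2, was in 1 window, against 40% of all. AGATAA or TGATAA, read by GATA factors, was in 0 of 8, against 18.6%. The vitamin D receptor typically binds as a pair of half-sites 3 bases apart. A half-site could be AGGTCA or AGTTCA. Either could also start with G in place of A, and such a pair was in 0 of 8 windows and in 0.0396% of all windows. AGGTCA alone, 1 of the allowed half-sites, was in 0 of 8, against 16.3%. A match here describes letters only, and these short windows do not cover distant regulatory sites.

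Levels are given in RPKM, reads scaled to gene length and library size, so they can be compared between genes. Over the 24 libraries the highest mean level was that of Myo1a, at 224.8 RPKM, and the next that of Vil1, at 208.6 RPKM. The bundler Pls1 averaged 168.8 RPKM, the membrane linker Ezr 154.5 RPKM and the tip protein Eps8 62.23 RPKM. The tip-link components followed, with Myo7b at 29.46 RPKM and Ush1c at 22.71 RPKM, and the bundler Espn came last at 3.603 RPKM. Mean levels of 98.9% of all symbols lay below that of Myo1a, and those of 59.9% below that of Espn.

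This order held better at some steps than at others. Within libraries, Myo1a lay above Vil1 in 17 of 24, at a ratio of 0.878 to 1.4 with a median of 1.09. The difference between these neighbours was not tested. Pls1 lay above Ezr in 20 of 24 and Myo7b above Ush1c in 23 of 24. At every other step, Vil1 over Pls1, Ezr over Eps8, Eps8 over Myo7b and Ush1c over Espn, the order was the same in 24 of 24 libraries. Ezr had a level 1.71 to 3.22 times that of Eps8, and Eps8 one 1.57 to 3.11 times that of Myo7b.

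The symbols Ush1c and Espn each stand on several entries in the tables. Ush1c has 3 entries, which held 20.9%, 28.9% and 50.1% of its sum. In 7 libraries the first and second entries were both listed at 0 and the third carried the whole value, which makes their split uncertain, and only the sum is used. Espn has 6 entries, and 1 of them held 92.5% of its sum.

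**Figure D1:**
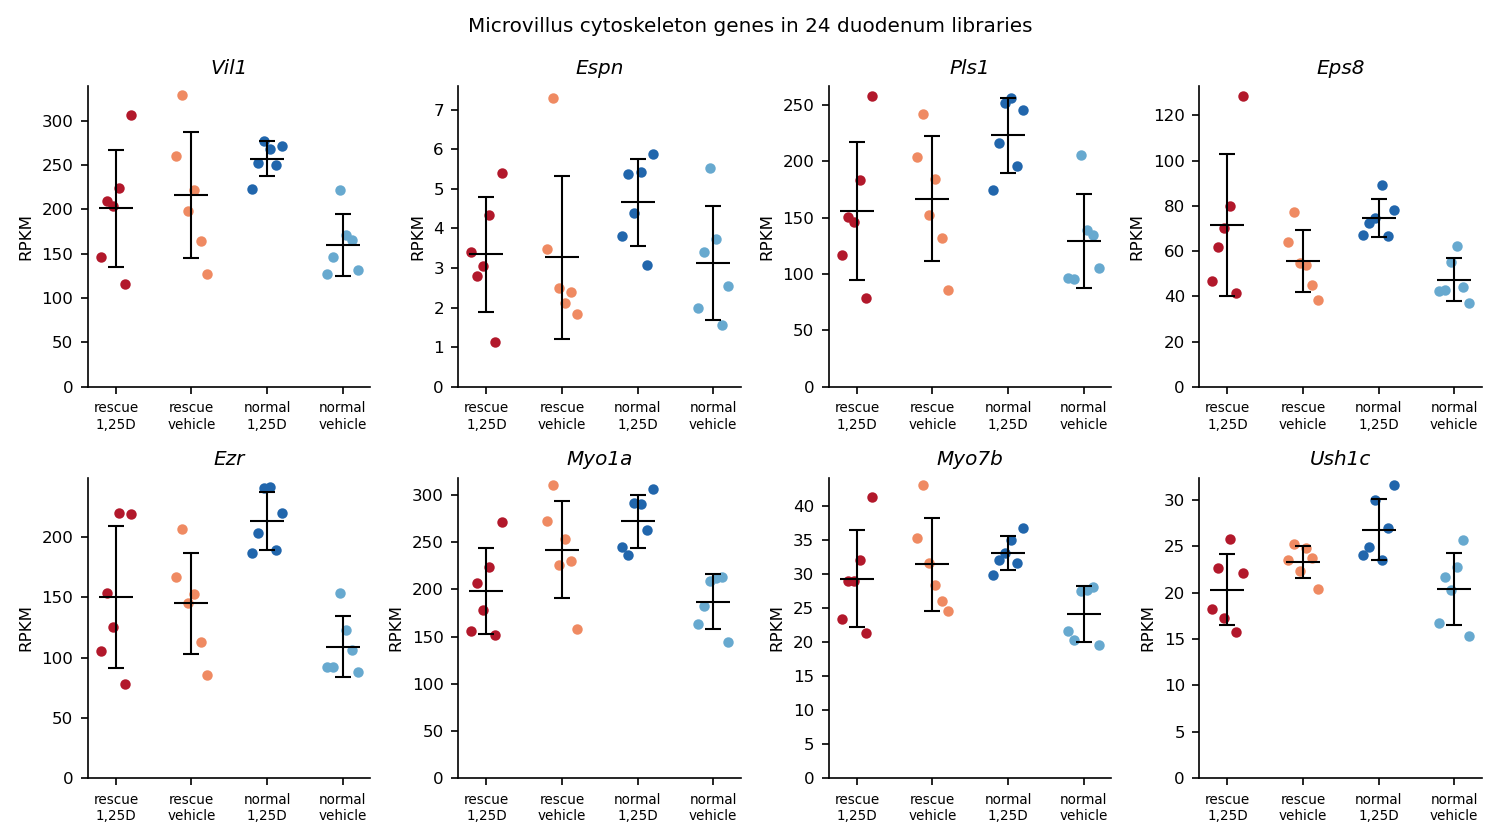
Level of each microvillus gene in RPKM (vertical axes, starting at 0) in the 4 groups; each point is a library, the long bar is the mean and the whiskers are 1 SD (n = 6). The mean is highest in normal 1,25D for 8 of 8 genes, and its libraries lie close together for most. Both rescue groups spread more widely, except for Ush1c in rescue vehicle. Single rescue libraries can lie above all of normal 1,25D, as for Vil1 at 328.3 RPKM in rescue vehicle.

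Across groups, all 8 genes had their highest mean in normal 1,25D. Normal vehicle had the lowest mean for 7 of them, the exception being Ush1c, at 20.3 ± 3.82 RPKM in rescue 1,25D and 20.4 ± 3.84 RPKM in normal vehicle (SD, n = 6 each). The spread differed too. For 7 of 8 genes the coefficient of variation was smallest in normal 1,25D, and for Vil1 it was 32.9% in rescue 1,25D, 33% in rescue vehicle, 7.76% in normal 1,25D and 21.6% in normal vehicle. Ush1c was again the exception, with its smallest value, 7.56%, in rescue vehicle. The plot of levels by group shows both patterns.

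The first comparison asks what 1,25D does to these genes on the normal diet. Ezr was the only member called, at an adjusted p under 0.05 in limma's moderated test over all 20006 genes; it rose 1.98-fold. The other 7 members also had higher means after 1,25D, by 1.32-fold to 1.77-fold, and none of them passed. In this comparison 1.84% of all genes tested were called in either direction, and 1.78% were called higher in 1,25D.

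Ezrin joins the actin core to the overlying membrane. Ezr had 187 RPKM in the lowest, 211.5 at the median and 241.1 RPKM in the highest of the normal 1,25D libraries, against 87.68, 99.54 and 153.9 RPKM in normal vehicle. All 6 libraries with 1,25D lay above all 6 with vehicle. The log2 fold change was 0.98 (SE 0.22, 95% interval 0.524 to 1.444), with adjusted p = 0.0179 from limma. It ranked 197th of 20006 genes by p, and 1.32% of genes had a higher log2 fold change. Its call is near the threshold: the adjusted p was 0.0521 without normal 1,25D replicate 3, 0.064 after quantile normalization and 0.0712 with median-of-ratios scaling, with log2 fold changes of 0.95, 0.80 and 0.90.

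Genes of the bundling proteins came next. Villin both bundles actin and, at high calcium, cuts it. Vil1 ran over 222.7, 260 and 276.7 RPKM (lowest, median, highest) in normal 1,25D, against 126.6, 155.7 and 221.2 RPKM in normal vehicle. The groups did not overlap, but by a narrow margin, because normal vehicle replicate 3 came close to the lowest library with 1,25D. The log2 fold change was 0.70 (SE 0.21, 95% interval 0.268 to 1.133, limma adjusted p = 0.0916).

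Plastin 1 packs the core filaments into a regular array. Pls1 ran over 174.6, 230.7 and 256.5 RPKM in normal 1,25D, against 95.33, 120 and 205.3 RPKM in normal vehicle. These groups overlapped through the same vehicle library, replicate 3, which lay above the lowest libraries with 1,25D. The log2 fold change was 0.83 (SE 0.25, 95% interval 0.315 to 1.338, limma adjusted p = 0.0929), the largest after that of Ezr. Without normal vehicle replicate 3 it was 0.97, and Pls1 was called at adjusted p = 0.0391. The gene of espin, a small bundler, had the lowest and most variable levels. Espn ran over 3.067, 4.88 and 5.891 RPKM in normal 1,25D, against 1.565, 2.978 and 5.531 RPKM in normal vehicle, and the groups overlapped. Its log2 fold change of 0.57 had an SE of 0.30 and an interval that included 0 (limma adjusted p = 0.487).

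Eps8 binds the growing ends of the filaments at the microvillus tip. It ran over 66.65, 73.65 and 89.23 RPKM in normal 1,25D, against 36.98, 43.5 and 62.3 RPKM in normal vehicle, with no overlap. The log2 fold change was 0.67 (SE 0.20, limma adjusted p = 0.0999). Leaving out rescue 1,25D replicate 6, a library of neither group but of the shared estimate of spread, brought the adjusted p to 0.0322.

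Of the motors, Myo1a bridges the core and the membrane along the microvillus. It ran over 236.8, 276.6 and 306 RPKM in normal 1,25D, against 144.1, 196 and 212.8 RPKM in normal vehicle, with no overlap (log2 fold change 0.55, SE 0.16, limma adjusted p = 0.0792). Without rescue vehicle replicate 6, which again touches only the estimate of spread, Myo1a was called at adjusted p = 0.0456. Myo7b, the motor that carries the tip-link complex, ran over 29.77, 32.47 and 36.73 RPKM in normal 1,25D, against 19.5, 24.52 and 28.11 RPKM in normal vehicle. Those groups did not overlap either (log2 fold change 0.46, SE 0.15, limma adjusted p = 0.124).

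Harmonin binds Myo7b and the tip-link cadherins. Ush1c ran over 23.48, 25.94 and 31.59 RPKM in normal 1,25D, against 15.32, 20.97 and 25.63 RPKM in normal vehicle. The groups overlapped, and the log2 fold change was 0.40 (SE 0.13, limma adjusted p = 0.124). Summed over its entries, as used here, it was the smallest of the members, but it was 0.92 with only the highest entry kept and 0.25 after quantile normalization.

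In total 5 of 8 members, Vil1, Ezr, Myo1a, Myo7b and Eps8, had every normal 1,25D library above every normal vehicle library, against 2.13% of all genes. The median log2 fold change of the members was 0.62, beside 0.05 over all genes tested, and 8 of 8 were above 0, as were 11772 of 20006 genes. With the fit restricted to the 12 libraries of the normal diet, 4 members were called, Eps8, Ezr, Pls1 and Vil1, among 433 of all genes (368 with all libraries).

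**Figure D2:**
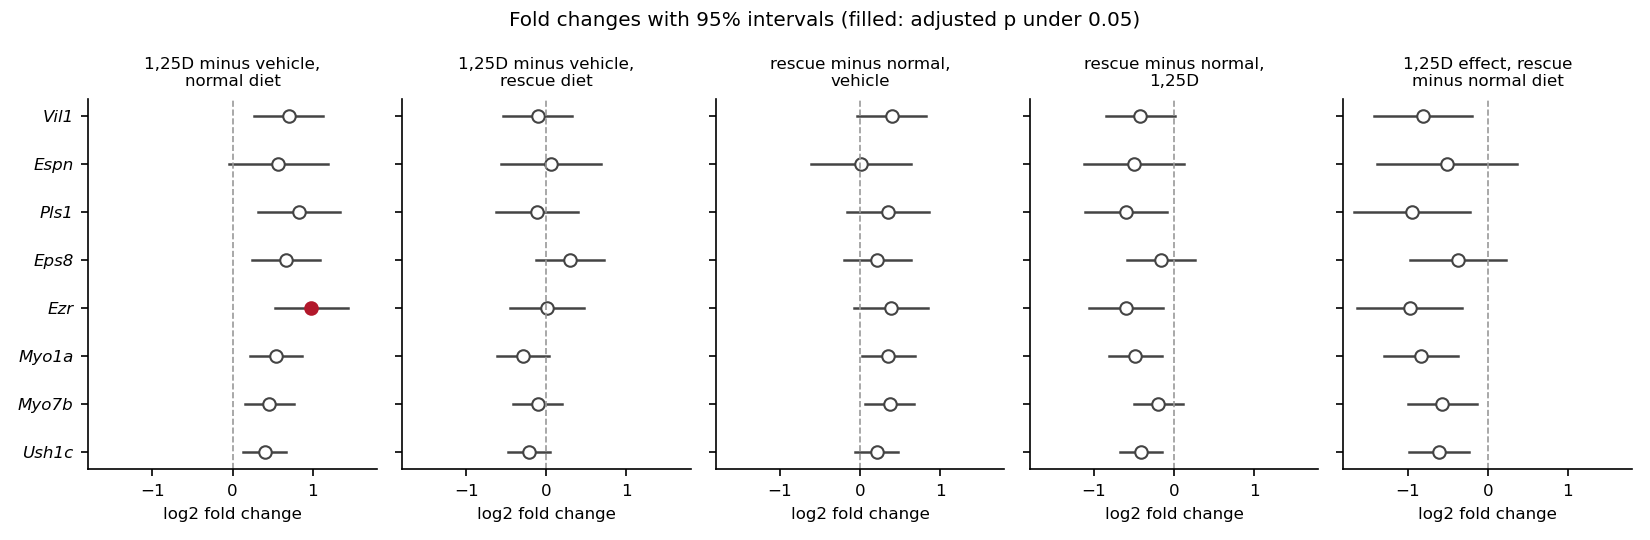
Log2 fold change of each gene (points, horizontal axes) with its 95% interval from limma in the 5 comparisons, the named first group minus the second; a filled point marks an adjusted p under 0.05. Ezr on the normal diet is the 1 filled point, at 0.98.

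Other readouts of the same libraries moved alongside. A whole duodenum holds many cell types, and in such samples fewer cells of a type and less RNA per cell cannot be told apart. Of 12 enterocyte markers, which include digestive and lipid-handling genes, 12 had log2 fold changes above 0 (11 under either other scaling) and 4 were called higher (Fabp2, Rbp2, Alpi and Mep1a), with a median of 1.19. Their summed level was 6649 to 12830 RPKM in normal 1,25D, against 2486 to 6222 RPKM in normal vehicle, and none was at 0. The 13 markers of general epithelium, such as Epcam and Cdh1, had a median of 0.01 with 0 called (-0.16 after quantile normalization, -0.07 with median-of-ratios scaling). They summed to 1954 to 2651 RPKM in normal 1,25D, against 1334 to 2718 RPKM in normal vehicle.

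For muscle, crypt and pancreas the values lay below 0. The 11 smooth muscle markers had a median log2 fold change of -0.41, all 11 below 0 and 0 called, and summed to 191.9 to 424.3 RPKM in normal 1,25D, against 249.7 to 898.5 RPKM in normal vehicle. The 9 markers of crypt and cycling cells had a median of -0.50, with 0 called, and summed to 384.8 to 657.7 RPKM in normal 1,25D, against 440.1 to 992.5 RPKM in normal vehicle. The 15 markers of exocrine pancreas, a neighbouring organ, had a median of -3.54 with 0 called. Pancreas markers made up 0.004632% to 2.611% of summed RPKM in normal 1,25D, against 0.2873% to 14.24% in normal vehicle. Medians of the smaller lists were 0.30 for goblet cells, 0.58 for enteroendocrine cells, 0.20 for immune cells and -0.46 for Paneth cells, with 0 called in each. The part of each of these in the results on the microvillus genes was not tested.

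On the rescue diet the same question was put to different libraries, under the shared estimate of spread. No member was called, in a comparison where 0.145% of all genes were. The 8 log2 fold changes ran between -0.29 and 0.30, with 3 above 0 and 5 below, a median of -0.11 beside 0.06 for all genes, and adjusted p between 0.878 and 0.996 in limma. No member had an unadjusted p under 0.05, and the groups overlapped for every member. Of all 20006 genes, 966 had an unadjusted p under 0.05 and 12175 lay above 0. Groups without overlap were also rare among them, 47 genes higher and 26 lower, so these counts do not set the members apart.

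Ezr shows how the rescue groups lay. It ran over 78.14, 139.7 and 219.5 RPKM (lowest, median, highest) in rescue 1,25D, against 85.78, 148.8 and 206.9 RPKM in rescue vehicle. Each of these groups covered a wider range than either normal group, and the log2 fold change was 0.01 (SE 0.22, 95% interval -0.452 to 0.468). Vil1 ran over 115.9, 206.3 and 305.8 RPKM in rescue 1,25D, against 126.9, 209.8 and 328.3 RPKM in rescue vehicle (log2 fold change -0.11, SE 0.21, limma adjusted p = 0.927). Pls1, at 78.88, 148.7 and 257.9 RPKM in rescue 1,25D, against 85.51, 168.2 and 241.6 RPKM in rescue vehicle, gave the same log2 fold change, -0.11 (SE 0.25).

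The extremes were Eps8 and Myo1a. Eps8 ran over 41.52, 65.9 and 128.4 RPKM in rescue 1,25D, against 38.36, 54.34 and 77.09 RPKM in rescue vehicle (log2 fold change 0.30, SE 0.20, limma adjusted p = 0.878). Myo1a ran over 152.2, 192.8 and 271.2 RPKM in rescue 1,25D, against 158.4, 241.7 and 310.1 RPKM in rescue vehicle (log2 fold change -0.29, SE 0.16, limma adjusted p = 0.878). Myo7b averaged 29.3 ± 7.07 RPKM in rescue 1,25D and 31.4 ± 6.85 RPKM in rescue vehicle. Ush1c averaged 20.3 ± 3.82 RPKM in rescue 1,25D and 23.3 ± 1.76 RPKM in rescue vehicle (SD, n = 6 each). Espn averaged 3.35 ± 1.45 RPKM in rescue 1,25D and 3.27 ± 2.05 RPKM in rescue vehicle (SD, n = 6 each).

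In these libraries the enterocyte markers had a median log2 fold change of -0.47, with 10 of 12 below 0 and 0 called. They summed to 1784 to 9508 RPKM in rescue 1,25D, against 2395 to 11490 RPKM in rescue vehicle. Smooth muscle markers summed to 154.2 to 661.5 RPKM in rescue 1,25D, against 140.8 to 611.7 RPKM in rescue vehicle, with a median log2 fold change of 0.10. For both lists the ranges of the groups overlapped.

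Does the response to 1,25D differ between the diets? All 8 members had a smaller log2 fold change on the rescue than on the normal diet, as did 9665 of 20006 genes. No difference of a member passed the test. In that test 0.005% of all genes, 1 of 20006, were called. The median difference over the members was -0.71, beside 0.01 over all genes, and 6 of 8 had an unadjusted p under 0.05, as did 1371 of 20006 genes. The largest was that of Ezr, at -0.98 (SE 0.32, 95% interval -1.627 to -0.325, limma adjusted p = 0.361). Myo1a had the smallest adjusted p, 0.261, with a difference of -0.83 (SE 0.22), and Eps8 the smallest difference, -0.37 (SE 0.29, limma adjusted p = 0.943). The call of Ezr on the normal diet is therefore not shown to depend on the diet. Over the enterocyte markers the median difference was -1.43, with 12 of 12 below 0 and 0 called, and over smooth muscle markers 0.50.

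**Figure D3:**
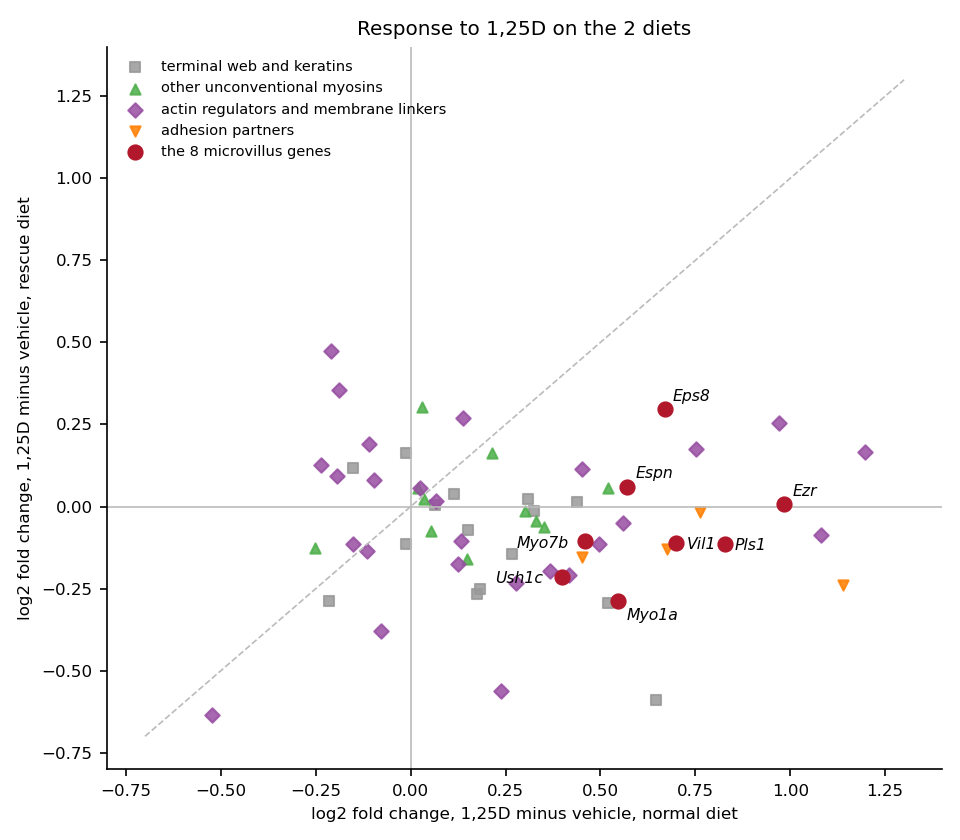
Log2 fold change, 1,25D minus vehicle, on the normal diet (horizontal axis) and on the rescue diet (vertical axis) for the microvillus genes and 4 lists of related genes; the dashed line marks equal change. The 8 microvillus genes lie between 0.40 and 0.98 on the horizontal axis and between -0.29 and 0.30 on the vertical axis.

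Set against each other directly, the diets gave 2 further comparisons, which share libraries with those above. Under vehicle, 0 of 8 members were called, and 0% of all genes were, with 1437 of 20006 genes at an unadjusted p under 0.05. All 8 members had higher means on the rescue diet, in a comparison where 13787 of 20006 genes lay above 0. The log2 fold changes of the members were 0.01 for Espn to 0.39 for Vil1, with a median of 0.35, beside 0.10 for all genes. The shift was smaller under the other scalings. Quantile normalization put the members at 0.19 beside 0.00 for all genes, and median-of-ratios scaling at 0.21 beside -0.01, with Espn below 0 in both. For Ush1c the value was 0.21, against 0.74 with only its highest entry kept. Vil1 averaged 216 ± 71.4 RPKM in rescue vehicle and 160 ± 34.6 RPKM in normal vehicle (SD, n = 6 each; SE of the log2 fold change 0.21, limma adjusted p = 0.717). Myo7b had the smallest unadjusted p of the members, 0.0199, at 31.4 ± 6.85 RPKM in rescue vehicle and 24.1 ± 4.05 RPKM in normal vehicle (log2 fold change 0.37, SE 0.15, limma adjusted p = 0.641). Pancreas markers made up 0.006254% to 1.881% of summed RPKM in rescue vehicle, against 0.2873% to 14.24% in normal vehicle. The 14.24% was that of normal vehicle replicate 6, and the next highest was 4.325%. Of the enterocyte markers 12 of 12 lay above 0, with a median log2 fold change of 0.48, 4 at an unadjusted p under 0.05 and 0 called. They summed to 2395 to 11490 RPKM in rescue vehicle, against 2486 to 6222 RPKM in normal vehicle. The part of either list in the shift of the members was not tested.

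After 1,25D, 0 of 8 members were called, beside 0.01% of all genes, 2 of 20006, and 4 members had an unadjusted p under 0.05, as did 1676 genes. All 8 members had lower means on the rescue diet, in a comparison where 5861 of 20006 genes lay below 0. The median log2 fold change of the members was -0.45, beside 0.12 for all genes (-0.46 beside 0.01 after quantile normalization). Pls1 had 156 ± 61.2 RPKM in rescue 1,25D and 223 ± 33.4 RPKM in normal 1,25D, and Ezr 150 ± 59 RPKM in rescue 1,25D and 213 ± 24.2 RPKM in normal 1,25D (SD, n = 6 each). Both had a log2 fold change of -0.60 (limma adjusted p = 0.535 for Pls1 and 0.482 for Ezr). For Ush1c it was -0.41 (SE 0.13) and for Myo1a -0.48 (SE 0.16), with limma adjusted p of 0.421 and 0.445. With only its highest entry kept, Ush1c was at -0.11. When limma weighted libraries by their noise, Ezr, Myo1a, Pls1 and Ush1c were called lower in rescue 1,25D, at adjusted p between 0.0144 and 0.038. In that weighted fit 815 genes were called higher and 472 lower.

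In the same comparison, of the enterocyte markers 12 of 12 lay below 0, with a median log2 fold change of -0.96, 9 at an unadjusted p under 0.05 and 0 called. They summed to 1784 to 9508 RPKM in rescue 1,25D, against 6649 to 12830 RPKM in normal 1,25D. Smooth muscle markers lay above 0 in 11 of 11 (median 0.54), and those of crypt and cycling cells in 9 of 9 (median 0.44), with 0 called in either list. Their part in the lower levels of the members was not tested.

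The spread within a group was largely shared by the 8 genes, and in the rescue groups the enterocyte markers set the same libraries apart. Rescue vehicle replicate 2 had the highest level of its group for 8 of 8 members, and rescue vehicle replicate 6 the lowest for 8 of 8. Rescue 1,25D replicate 5 was the lowest of its group for 8 of 8, and rescue 1,25D replicate 6 the highest for 6 of 8. Vil1, for example, stood at 328.3 RPKM in rescue vehicle replicate 2 and at 126.9 RPKM in rescue vehicle replicate 6. The summed enterocyte markers were highest in rescue vehicle replicate 2, at 11490 RPKM, and lowest in its replicate 6, at 2395 RPKM. In rescue 1,25D they were lowest in replicate 5, at 1784 RPKM, and highest in replicate 6, at 9508 RPKM. In normal vehicle they were highest in replicate 3, at 6222 RPKM, the highest library for 4 of 8 members. Normal vehicle replicate 6 was the lowest for 5 of 8 members, but there the markers stood at 4741 RPKM. They were lowest in normal vehicle replicate 1, at 2486 RPKM, the lowest library for 1 of 8 members. The part of the enterocyte markers in the spread of the members was not tested. Each of the 6 normal 1,25D libraries lay above the 24-library median for 7 or 8 members.

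Cyp24a1, the enzyme gene that 1,25D induces most strongly, gives a check on the injection in these libraries. It was at 92.07 RPKM in rescue 1,25D replicate 5, where the members were lowest, and at 277.6 RPKM in replicate 6, where most were highest, against 430.1 to 961.8 RPKM in the other rescue 1,25D libraries. The normal 1,25D libraries were at 509.2 to 1036 RPKM, and all vehicle libraries were at or below 4.027 RPKM. Without rescue 1,25D replicate 5 the count of members called on the rescue diet was still 0, as it was in each of the other 23 fits that left out 1 library.

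Once group means were removed, the members varied together from library to library. Over the 28 pairs Pearson's r ran from 0.361 to 0.97 with a median of 0.877, and Spearman's rho from 0.383 to 0.943. By permutation within groups, 27 pairs passed after Benjamini-Hochberg adjustment over the 28, for r and for rho alike (26 to 28 with libraries removed or after quantile normalization). The exception was Espn with Ush1c (r = 0.361, permutation adjusted p = 0.119; rho = 0.383, permutation adjusted p = 0.0897). Without the pair of libraries farthest from the median of the first gene, the lowest r was 0.209 and the median 0.835. All values of a library share its scaling to library size and its mix of cells.

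**Figure D4:**
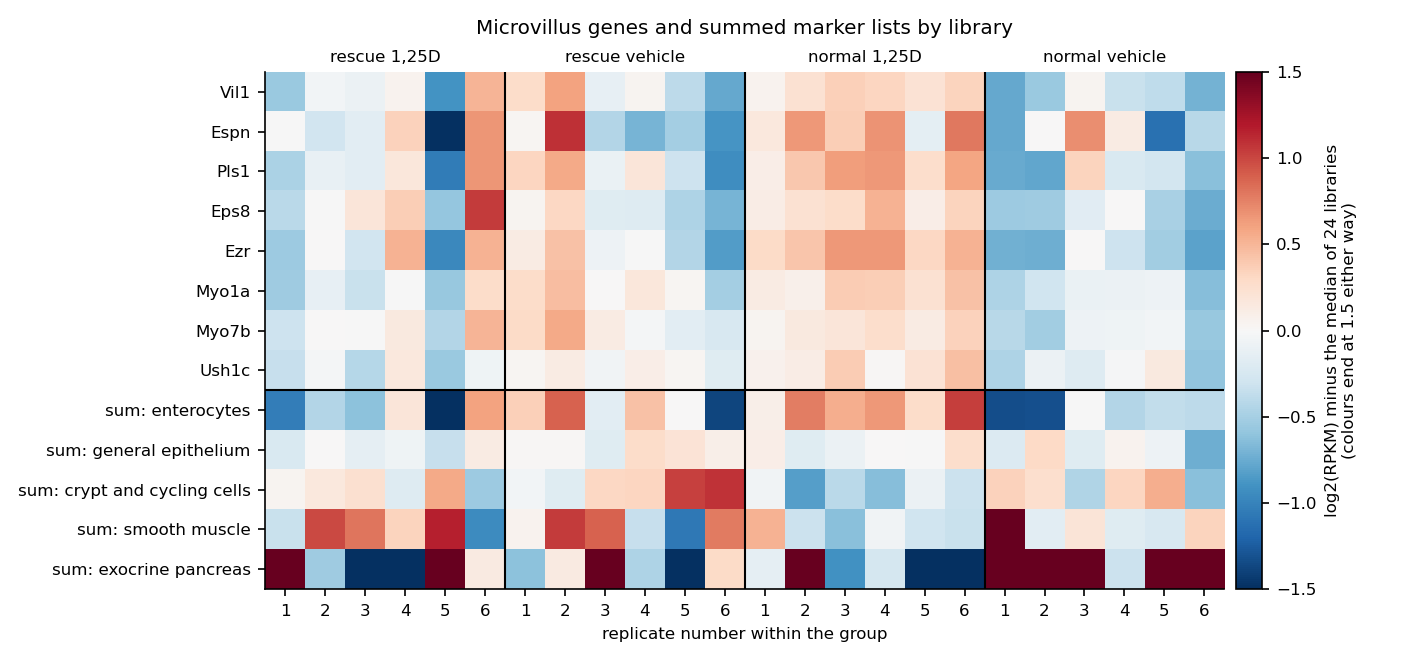
Level of each microvillus gene (upper rows) and summed level of 5 marker lists (lower rows) in the 24 libraries, as log2(RPKM) minus the median over libraries; red is above and blue below the median, and colours end at 1.5 either way. Members shift together within a group, as in rescue vehicle replicates 2 and 6.

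Some other genes followed the mean of the 8 members closely. Over the 24 libraries the 10 highest Pearson correlations with that mean, given as a description, were those of Mttp and Cst6 (0.962 each), Ehhadh (0.96), Heph (0.958), Ces5 (0.957), H2-T3 (0.954), Fuca2 and Agpat9 (0.952 each), and Cdhr2 and Btnl3 (0.951 each). Mttp is also 1 of the enterocyte markers, and Cdhr2 a tip-link cadherin. With the group means removed these values were 0.924 to 0.961. Each member's own correlation with the mean of the other 7 ran from 0.709 for Ush1c and 0.769 for Espn to 0.975 for Vil1.

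RNA levels of related genes, of the microvillus and of structures near it, gave a mixed picture on the normal diet. Beside the counts of each list below stand those of all genes tested in this comparison. Of these, 1.78% were called higher and 11772 of 20006 lay above 0, with a median of 0.05. Of the 4 adhesion partners at the tips, 1 was called and all had log2 fold changes above 0, with a median of 0.72. Calml4, a calmodulin-like light chain that works with Myo7b, rose 1.60-fold, to 146 ± 15.5 RPKM in normal 1,25D, against 91.7 ± 15.1 RPKM in normal vehicle (SD, n = 6 each; log2 fold change 0.68, SE 0.15, limma adjusted p = 0.0166). The call ended without normal 1,25D replicate 4 or normal vehicle replicate 2. The cadherins that form the tip links had larger or similar changes with more spread. Cdhr2 averaged 165 ± 25.1 RPKM in normal 1,25D and 79.4 ± 33 RPKM in normal vehicle (SD, n = 6 each; log2 fold change 1.14, SE 0.34, limma adjusted p = 0.0891). Cdhr5 averaged 56.3 ± 9.57 RPKM in normal 1,25D and 33.5 ± 8.52 RPKM in normal vehicle (SD, n = 6 each; log2 fold change 0.76, SE 0.24, limma adjusted p = 0.109). The scaffold Anks4b had a log2 fold change of 0.45 (SE 0.15, limma adjusted p = 0.132).

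Of 26 actin regulators and membrane linkers, 5 were called, all higher, 16 lay above 0 and the list median was 0.13 (12 above 0 and -0.03 after quantile normalization). Slc9a3r1, the scaffold NHERF1 that binds ezrin, rose 2.29-fold, to 149 ± 19.8 RPKM in normal 1,25D, against 64.7 ± 8.18 RPKM in normal vehicle (SD, n = 6 each; limma adjusted p = 0.00318). Pdzk1, a scaffold of the same PDZ type, rose 2.11-fold (log2 fold change 1.08, SE 0.27, limma adjusted p = 0.0338). Actb, which encodes the actin of most cells, rose 1.96-fold, to 1840 ± 198 RPKM in normal 1,25D, against 949 ± 158 RPKM in normal vehicle (SD, n = 6 each; log2 fold change 0.97, SE 0.20, limma adjusted p = 0.00884). The closely related Actg1 averaged 326 RPKM in normal 1,25D and 385 RPKM in normal vehicle (log2 fold change -0.24, SE 0.17, limma adjusted p = 0.696). Near-identical actin copies may share reads, which makes the split uncertain.

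The remaining calls were those of Eps8l2, a relative of Eps8, and Calm2, 1 of the genes for calmodulin, which serves as light chain of Myo1a. Eps8l2 rose 1.69-fold (log2 fold change 0.75, SE 0.18, limma adjusted p = 0.0312) and Calm2 1.47-fold (log2 fold change 0.56, SE 0.14, limma adjusted p = 0.0351). The calls of Slc9a3r1 and Actb held in all 24 fits with 1 library removed, those of Pdzk1 and Calm2 in 18, and that of Eps8l2 in 16. The relatives of ezrin, radixin (Rdx) and moesin (Msn), were at -0.10 (SE 0.22) and -0.21 (SE 0.28) on the log2 scale, neither called.

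Of 11 other unconventional myosins, 1 was called and 10 lay above 0 (6 under either other scaling), with a median of 0.15. Myo5b, a motor of the vesicles that bring membrane proteins to the brush border, rose 1.43-fold, to 39.1 ± 2.28 RPKM in normal 1,25D, against 27.4 ± 3.94 RPKM in normal vehicle (SD, n = 6 each; log2 fold change 0.52, SE 0.12, limma adjusted p = 0.023). Its call held in 20 of 24 fits with 1 library removed. Of 15 genes of the terminal web and its keratins, the meshwork below the microvilli, none was called and 11 lay above 0 (8 after quantile normalization), with a median of 0.17. Spna2, an alpha spectrin, came closest at a log2 fold change of 0.44 (SE 0.12, limma adjusted p = 0.051), and Myh14, a non-muscle myosin heavy chain, was at 0.52 (SE 0.16, limma adjusted p = 0.108).

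None of these 56 related genes was called in any of the other 4 comparisons, where few genes were called at all. Of all genes, 0.145% were called on the rescue diet and 0.005% for the difference of the effect. Between diets it was 0% under vehicle and 0.01% after 1,25D. On the rescue diet the list medians were -0.14 for adhesion partners, -0.02 for actin regulators and linkers, -0.01 for other myosins and -0.07 for the terminal web. Baiap2l2, a membrane-shaping protein that binds actin, had the smallest unadjusted p there, 0.0053, at 6.18 RPKM in rescue 1,25D and 9.83 RPKM in rescue vehicle (log2 fold change -0.64, SE 0.21, limma adjusted p = 0.667). On the normal diet it was at 6.52 RPKM in normal 1,25D and 10.2 RPKM in normal vehicle (log2 fold change -0.52, SE 0.21, limma adjusted p = 0.257). These lists were drawn up with earlier results of these libraries known, so their counts describe the genes and add no independent evidence.

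Depth limits some of these values. Summed RPKM ran from 541395 to 697913 per library. Read totals are unknown, but the steps between low values gave relative depths from 0.606 to 1.67, so that 1 library held up to 2.76 times the reads of another. No pair of libraries was identical, and r between libraries ran from 0.867 to 0.981.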

How the data were processed

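RNA was measured in the duodenum of Cyp27b1-null mice. Per the labels' protocols, total RNA was treated with DNase, depleted of ribosomal RNA with the RiboMinus kit and made into directional libraries with the ScriptSeq v2 kit. Per the submitters' processing notes, TopHat and the mm9 build were used; versions, annotation and the program that quantified genes were not given in the sources used here. RPKM values, 1 table per library per the file headers, were deposited by the authors and used unchanged; no read counts were at hand. Entries that share a symbol (3470 of 25410 symbols, 30795 entries) were added up, which merges isoforms.

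Groups were taken from the labels. The model was fitted with limma 3.58.1 (R 4.3.3, trended empirical Bayes) to log2(RPKM + 0.5) of the 20006 genes at 0.5 RPKM or more in at least 6 of 24 libraries. It held the 4 group means and all 24 libraries, which left 20 residual degrees of freedom. Calls are at a two-sided p under 0.05 after Benjamini-Hochberg adjustment across the genes fitted. On the log2(RPKM + 0.5) scale the change of low genes such as Espn is understated. The procedure was checked on simulated data with independent noise for each gene. That check does not show how calls behave when genes vary together between libraries, as the members did. Correlations used 100000 permutations within groups, of which 1e-05 is the smallest p they can give, and Python 3.11.15 with numpy 2.4.6, pandas 2.3.3, scipy 1.17.1 and matplotlib 3.10.9. The steps of 2240 low entries gave the estimate of relative depth, with 80.4% of 276 library pairs within 0.05 (log2) of the joint solution.

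The members, the related gene lists, the marker lists and the tests were chosen with earlier results of these data known. Of each related list, the genes eligible to be named were, per comparison, up to 4 with the smallest unadjusted p and any called; Rdx, Msn, Actg1 on the normal diet and Baiap2l2 on the normal diet were added after their values were seen, as were the markers named. Older symbols were used where the tables hold them; listed genes with no match were not analysed here. Alternatives covered the pseudocount, the filter, scaling, weights per library, a replicate block, the groups in the fit, the entry kept per symbol, and leaving out libraries. The labels' replicate numbers were not used to pair libraries. Promoter windows came from a RefSeq table of the GRCm38.p6 build; because the files use mm9, no other coordinates are given. Its table held no window for Eps8 or Myo7b.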

Additional observations from a re-analysis of the deposited data

Results flagged for a closer look

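Espn in rescue vehicle had 1 library far from the others. Replicate 2 stood at 7.291 RPKM, and its distance to the next library was 0.7 of the range of the group, above the critical value of 0.625 for 6 values in Dixon's test. The same library had the highest level of its group for 8 of 8 members. In all 32 sets, 8 genes in 4 groups, were looked at, and chance flags about 1 in 20 such sets. Leaving that library out did not bring Espn past the threshold in any comparison.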

How the results depend on the processing

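No called value changed sign under any alternative. On the normal diet the count of members called (1, Ezr) was 0 after quantile normalization, 0 with median-of-ratios scaling and 4 with only the groups compared in the fit. It ran from 0 to 2 over the fits that left out 1 library: 0 without normal 1,25D replicate 3, and 2 without normal vehicle replicate 3, rescue vehicle replicate 6 or rescue 1,25D replicate 6. Between diets after 1,25D the count of 0 became 4 with array weights. The causes were not tested, beyond the fact that only the groups compared changes the estimate of spread and not the fold changes. The other counts of members kept their value under every alternative run; the fit of only the groups compared was not run for the difference between diets, which needs all 4 groups.

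The Ezr log2 fold change on the normal diet ran from 0.80 to 1.09. Keeping 1 entry per symbol moved that of Ush1c to 0.92. Of the related genes called on the normal diet, Slc9a3r1 and Actb kept their calls under 11 of 11 alternatives other than leaving out 1 library, Calml4 and Myo5b under 9, Eps8l2 and Pdzk1 under 8, and Calm2 under 5. Uncalled rescue-diet values near 0 changed sign in some fits, 8 for Ezr and 6 for Espn. All genes called on the normal diet, 357 higher and 11 lower, were 231 and 93 after quantile normalization, 219 and 81 with median-of-ratios scaling, and 419 and 14 with only the groups compared. They numbered 376 and 99 with array weights, and 286 and 117 when rescue 1,25D replicate 4 and normal vehicle replicate 6 were both removed. Removing normal vehicle replicate 6 alone gave 279 and 117, and removing rescue 1,25D replicate 4 alone gave 364 and 14. The total of 368 ran from 200 to 453 over the fits that left out 1 library, and leaving out normal 1,25D replicate 3, 4 or 6 gave 200, 228 and 239. Leaving out normal vehicle replicate 1 gave 234. The total on the rescue diet, 29, ran from 12 to 48 in those fits and from 11 to 90 under the other alternatives. Between diets, totals under those others reached 1287 after 1,25D and 32 for the difference of the effect.

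No pairing by replicate number was seen. Over 36 pairs with the same number the correlation of deviations ran from -0.44 to 0.48 with a median of 0. Over 180 pairs with different numbers it ran from -0.76 to 0.72 with a median of 0.02. A small effect tied to the number could go unseen in such values. A fit with the replicate block called 1 member on the normal diet, among 322 genes higher and 12 lower. Without read totals, counting error cannot be given for Espn, whose levels are the lowest.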
